A study of Mus musculus with 4 samples.

Results

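Voltage-gated ion channel genes of the embryonic mouse cortex were examined in RNA from E15 cortices of cKI f/+ and WT mice. The members were the protein-coding genes whose symbols name a sodium channel subunit (Scn), a calcium channel alpha1, alpha2delta, beta or gamma subunit (Cacna1, Cacna2d, Cacnb, Cacng), an HCN channel or a potassium channel of the Kcna, Kcnb, Kcnc, Kcnd or Kcnq families. They were chosen by name and not by any measured value, and 62 of the 26433 genes in the count table matched. In cKI f/+ animals, human SERPINA3 sits at Rosa26 under the ubiquitous CAG promoter, and Nestin-Cre, active in neural progenitors, cuts out the loxP-flanked STOP that precedes it. WT littermates served as controls. The strain is labelled C57BL/6 in both groups, while the founders had been bred with B6D2F2 mice. Each genotype had 2 libraries (KI2 and KI3 for cKI f/+, WT1 and WT3 for WT). The labels speak of triplicates and do not say whether each library is a separate embryo, so p-values measure only the spread between these libraries, which may be technical.

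Voltage-gated channels open when the membrane potential changes. Sodium channels carry the upstroke of the action potential, calcium channels turn depolarization into calcium entry, HCN channels open on hyperpolarization, and potassium channels repolarize the cell. The pore of a sodium or calcium channel is a single large alpha subunit, whereas potassium and HCN channels assemble their pore from separate subunits, and smaller beta, alpha2delta or gamma subunits set trafficking and gating. In the developing cortex most of these genes are switched on as neurons leave the progenitor zones, and some are also used by progenitors and migrating neurons before any synapse is active.

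The counts summed to between 17423512 and 18119444 per library, and the detection floor was set at 3 counts, or 0.166 to 0.172 CPM (counts scaled to the library total). This floor covers counting error only. The libraries differed by group in sex-linked transcripts, since Xist had 746 and 656 CPM in KI2 and KI3 against 0.28 and 0.29 CPM in WT1 and WT3, and Kdm5d of the Y chromosome was at 0 counts in KI2 and KI3 with 54.0 and 52.7 CPM in WT. This split and the genotype cannot be told apart in any difference given here. The dorsal telencephalon markers Emx1, Emx2, Lhx2, Neurod6, Tbr1 and Fezf2 were above the floor in every library. Reads of the SERPINA3 transgene itself were not analysed here, so the targeted gene could not check the labels.

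Across the voltage-gated channel genes, no member was called different between cKI f/+ and WT cortices. Of the 62 members, 57 passed the filter on low counts, and 0 of these 57 had a Benjamini-Hochberg adjusted p under 0.05 in edgeR's quasi-likelihood test, where 0.12% of all 15786 tested genes did (0.0697% higher and 0.0507% lower in cKI f/+). DESeq2 called 0 of 62 members and 24 of 26433 genes. It gave an unadjusted p under 0.05 for 5 of the 62 members (8.06%) and for 1.26% of all genes. DESeq2 was run without the filter on low counts, which 57 of the 62 members but only 15786 of the 26433 genes passed. Its share over all genes thus includes many genes with few reads, and the 8.06% and 1.26% are not like for like. The likelihood ratio test of edgeR called 1 of the 57 members, Cacna1g, and 54 of the 15786 genes. At an unadjusted p under 0.05, the number was 7 of 57 members, or 12.3%, against 4.6% of all tested genes. Higher members made up 4 of the 7, or 7.02% of those tested against 2.26% of all genes, and lower members 3, or 5.26% against 2.34%. The lowest adjusted p was 0.498 for Cacna1g (edgeR's quasi-likelihood test). The median log2 fold change over the 57 members was 0.03, and over all tested genes it was 0.0043, with 32 members (56.1%) and 51.2% of all genes above 0. An absolute log2 fold change above 0.5 was fitted for 8 members (14%) and for 6.97% of all genes. For 18 of the 57 members, or 31.6%, both libraries of a group lay on one side of both libraries of the other, against 33.9% of all tested genes, with 10 members higher (17.5% against 16%) and 8 lower (14% against 18%). With 2 libraries against 2, an exact two-sided permutation test of a single gene cannot give a p below 0.333. The plot of log2 fold changes shows the members by family.

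**Figure D1:**
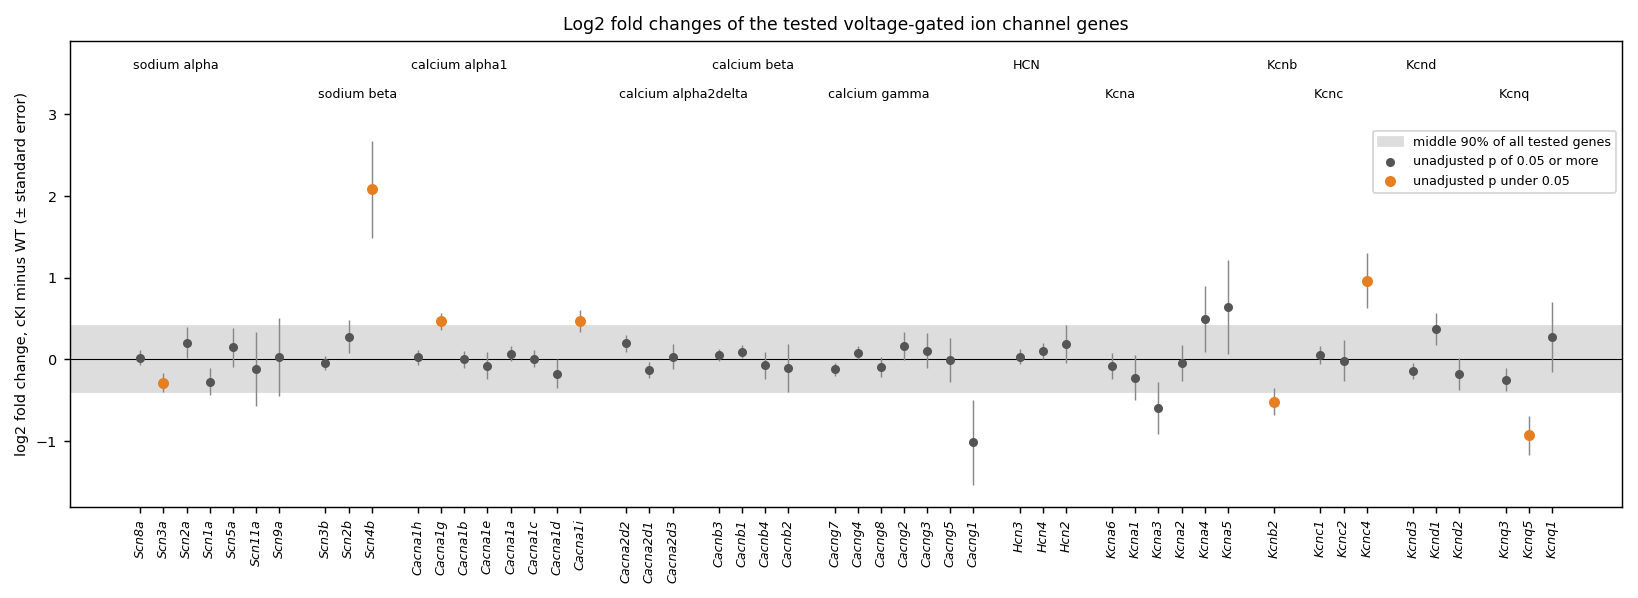
Log2 fold change between cKI f/+ and WT (vertical axis, cKI f/+ minus WT, with the standard error as bars) for 51 of the 57 tested members, grouped by family, with the 7 members at an unadjusted p under 0.05 in orange. The grey band holds the middle 90% of all 15786 tested genes, from -0.40 to 0.41, and 41 of the 51 plotted members lie inside it, 6 above it and 4 below it.

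Sequence upstream of the transcription start was compared because CpG-rich promoters are a feature that the choice by name did not use. The RefSeq promoter table (GRCm38.p6) matched 41 of the 62 members with 56 annotated starts, and the 250 bases before each start were read. They held a median of 9 CpG dinucleotides and 59.8% G or C, against 6 CpG and 52.4% over all 32851 promoters of that table. The letters TATAAA on either strand were in 2 of the members' 56 windows (3.57%) and in 12.4% of all windows. GGGCGG on either strand was in 22 of the 56 (39.3%) and in 32.7% of all windows. These shares were not adjusted for G and C content. A pair of windows that overlap no annotated exon is shown, with every CpG in capitals, one from the T-type calcium channel gene Cacna1i, which is among the 7 members above, and one from Cacng7, the member with the highest level. Cacna1i lies at chr15:80286988-80287237 on the plus strand and has 16 CpG, and Cacng7 lies at chr7:3332575-3332824 on the plus strand and has 9 CpG. Further windows without exon overlap had fewer CpG, with 3 for Kcnq5 of the 7 (44.4% G or C), 2 for Cacnb3 and 1 for Cacnb1. At their other starts, whose windows overlap an annotated exon, Kcnq5 had 14 CpG (60.8% G or C), Cacnb3 23 and Cacnb1 26. Scn4b and Kcnc4 of the 7 had 23 and 12 CpG in windows that overlap an exon.
Cacna1i: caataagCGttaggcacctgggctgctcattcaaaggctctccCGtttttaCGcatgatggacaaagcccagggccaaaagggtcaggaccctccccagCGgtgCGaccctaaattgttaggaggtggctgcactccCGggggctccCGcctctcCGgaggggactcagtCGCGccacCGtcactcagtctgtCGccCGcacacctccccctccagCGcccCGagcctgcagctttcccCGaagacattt
Cacng7: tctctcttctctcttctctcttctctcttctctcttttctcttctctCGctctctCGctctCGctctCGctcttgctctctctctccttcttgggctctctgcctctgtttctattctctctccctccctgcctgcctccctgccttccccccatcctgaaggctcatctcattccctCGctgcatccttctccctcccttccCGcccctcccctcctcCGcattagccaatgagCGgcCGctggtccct

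The levels of the members spanned a wide range, from genes at the floor to Cacng7 at around 100 RPKM (CPM divided by exon length in kilobases, the scale used here to compare genes of different length). Together the 62 members took between 0.243% and 0.272% of the reads of a library, the lowest in KI3 and the highest in KI2. At the bottom of the range were several genes known from skeletal muscle or the retina. Scn4a, the sodium channel of skeletal muscle, had 0 and 2 counts in cKI f/+ against 0 and 1 in WT. Cacna2d4, a subunit of retinal calcium channels, had 3 and 1 counts against 0 and 0, and Cacng6 had 1 and 1 against 2 and 3. Cacna1f, the retinal alpha1 subunit, had 7 and 3 against 10 and 4, and Cacna1s, the alpha1 subunit of skeletal muscle, had 11 and 10 against 8 and 4. These 5 genes were the members not tested. Of 7 skeletal muscle markers, 6 were in the count table, with a summed level of 1.08 to 1.49 CPM, and Ckm and Myog were at or under 3 counts in every library. Acta1, the 1 marker tested, had 13 and 14 counts in cKI f/+ against 5 and 6 in WT (log2 fold change 1.25, edgeR quasi-likelihood p of 0.0379 before and 0.969 after adjustment). The part of muscle RNA in the channel values was not tested.

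**Figure D2:**
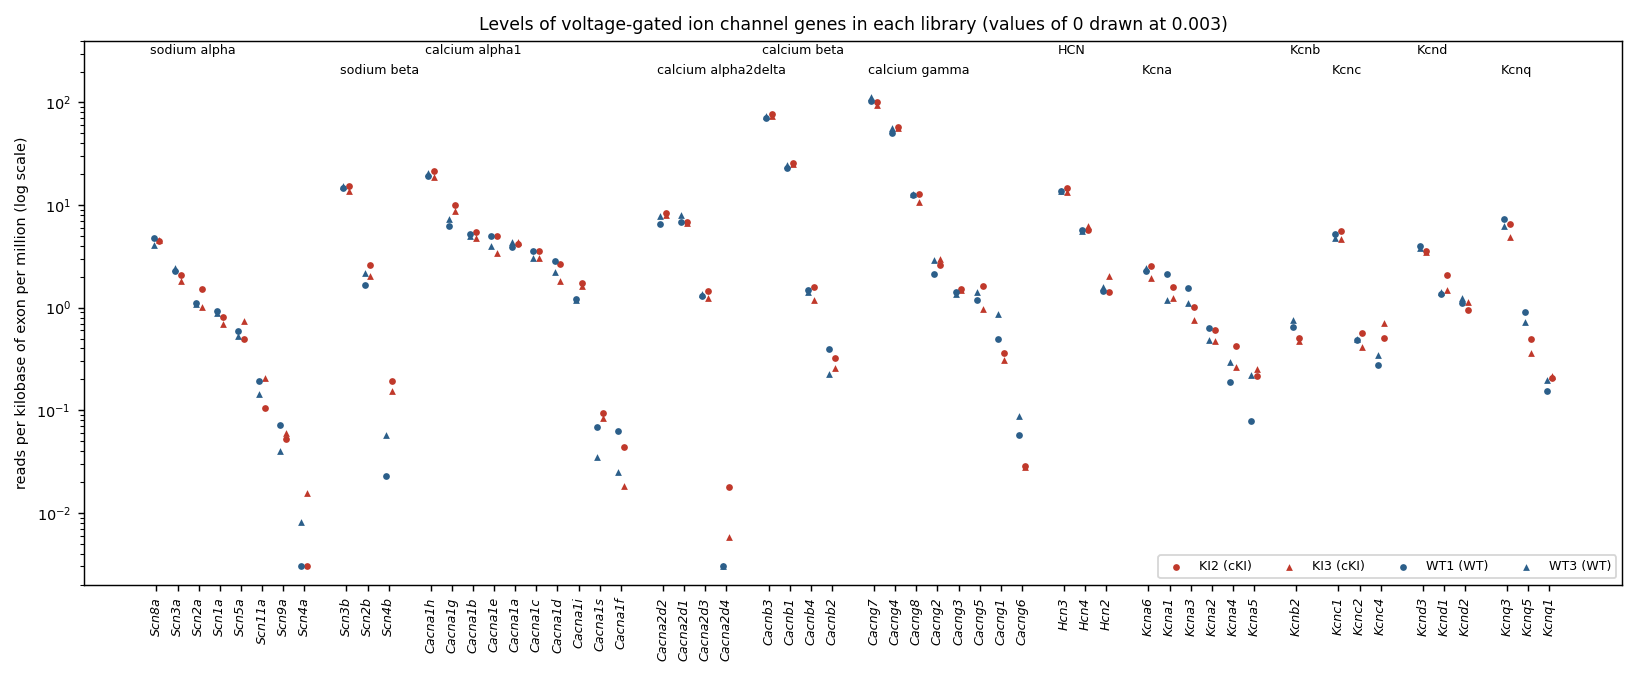
Level of 56 of the 62 members (vertical axis, RPKM on a log scale) in the cKI f/+ libraries KI2 and KI3 and the WT libraries WT1 and WT3, grouped by family and ordered by mean level. Values of 0 are drawn at 0.003. Cacng7 lies highest, at 95.5 to 112.4 RPKM, and Scn4a and Cacna2d4 lie lowest, with 0 counts in 2 libraries each.

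Among sodium channel alpha subunits, which form the pore, Scn8a had the highest level, at 4.09 to 4.81 RPKM over the 4 libraries. Scn3a, the sodium channel best known from the fetal brain, followed at 1.80 to 2.46 RPKM and Scn2a, its neighbour in the genome and a main channel of young axons, at 1.01 to 1.51 RPKM. Scn8a held 48.5% ± 2.10 (SD, n = 2) of the summed alpha subunit level in cKI f/+ against 46.2% ± 2.76 (SD, n = 2) in WT. Scn11a and Scn9a, known from pain-sensing neurons, stayed at or under 0.205 RPKM. Of the 7 alpha subunits tested, 4 were higher and 3 lower in cKI f/+, with a median log2 fold change of 0.02 and 1 at an unadjusted p under 0.05.

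That gene was Scn3a. It had 25.8 and 22.5 CPM in KI2 and KI3 against 28.4 and 30.6 CPM in WT1 and WT3, so both cKI f/+ libraries were below both WT libraries. The log2 fold change was -0.29 (standard error 0.11), with an unadjusted p of 0.0331 and an adjusted p of 0.969 from edgeR's quasi-likelihood test, so it was not called. Scn3a lies on chromosome 2 from 65457118 to 65567627 on the minus strand, beside Scn2a on the plus strand from 65620771. Scn2a had a log2 fold change of 0.21 with overlapping groups, and KI2 alone stood above the other libraries at 1.51 RPKM. Scn1a and Scn9a lie in the same cluster, with log2 fold changes of -0.27 and 0.03.

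The beta subunits are single-pass proteins that modify sodium channel gating and act as adhesion molecules. Scn3b was by far the most abundant at 13.8 to 15.4 RPKM, and Scn2b stood at 1.65 to 2.60 RPKM. Scn3b held 76.5% ± 0.87 (SD, n = 2) of the beta subunit level in cKI f/+ against 81.0% ± 3.46 (SD, n = 2) in WT. The groups overlapped for Scn3b, whose log2 fold change was -0.05 (standard error 0.09).

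Scn4b, the beta subunit of resurgent sodium current, was the member with the largest fitted increase, on very few reads. It had 17 and 14 counts in cKI f/+ against 2 and 5 counts in WT, so WT1 was under the floor of 3 counts. The summed counts of 31 and 7 gave a ratio of 4.33 after scaling to library size, with an exact binomial 95% interval of 1.87 to 11.6 that covers counting error only. The fitted log2 fold change was 2.08 (standard error 0.60), with an unadjusted p of 0.00656 and an adjusted p of 0.878 from edgeR's quasi-likelihood test. Its neighbour Scn2b, which ends at 45130070 on chromosome 9 before Scn4b starts at 45138395, had 12.1 and 9.49 CPM against 7.66 and 10.2 CPM, with overlapping groups.

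The calcium channel alpha1 subunits were led by the T-type genes Cacna1h and Cacna1g, whose channels open near rest and are known for burst firing. Cacna1h was present at 18.7 to 21.5 RPKM, Cacna1g at 6.22 to 9.96 RPKM and Cacna1b, the N-type channel of presynaptic terminals, at 4.74 to 5.50 RPKM. Cacna1h held 39.9% ± 0.33 (SD, n = 2) of the summed alpha1 level in cKI f/+ against 41.8% ± 1.71 (SD, n = 2) in WT. Of 8 alpha1 subunits tested, 6 were higher and 2 lower in cKI f/+, with a median log2 fold change of 0.02, and 2 had an unadjusted p under 0.05. Both were T-type genes, but the members were grouped as alpha1 subunits, and T-type genes were not a planned group.

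Cacna1g had 100.9 and 88.9 CPM in KI2 and KI3 against 63.1 and 74.7 CPM in WT1 and WT3. The groups did not overlap, and the difference between the means, 94.9 ± 8.53 against 68.9 ± 8.20 CPM (SD, n = 2), was larger than the spread within either group. The log2 fold change was 0.47 (standard error 0.11), a 1.38-fold difference, with an unadjusted p of 0.00146 and an adjusted p of 0.498 from edgeR's quasi-likelihood test. It passed the threshold with edgeR's likelihood ratio test (adjusted p = 0.0265) and in the quasi-likelihood test when WT3 was left out (adjusted p = 0.0128, with WT1 as the lone WT library assumed to vary like the others), and over all alternatives the adjusted p ran from 0.0128 to 0.889. The gene lies on chromosome 11 from 94408391 to 94474198.

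Cacna1i, the T-type gene best known from the thalamus, had 17.1 and 15.9 CPM in cKI f/+ against 12.1 and 11.8 CPM in WT, again with no overlap. Its log2 fold change was 0.47 (standard error 0.13), with an unadjusted p of 0.00601 and an adjusted p of 0.871 from edgeR's quasi-likelihood test. Cacna1h, the third T-type gene, had 210 and 182 CPM in cKI f/+ against 187 and 200 CPM in WT. The groups overlapped, and the log2 fold change was 0.03 (standard error 0.09). On the per-length scale Cacna1g made up 30.0% and 30.2% of the T-type level in KI2 and KI3 against 23.4% and 25.3% in WT, while Cacna1h made up 64.8% and 64.3% against 72.0% and 70.6%. These shares are parts of the same sum, so a higher level of Cacna1g or Cacna1i lowers the share of Cacna1h. Cacna1h is the only member on chromosome 17, from 25374285 to 25433783.

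**Figure D3:**
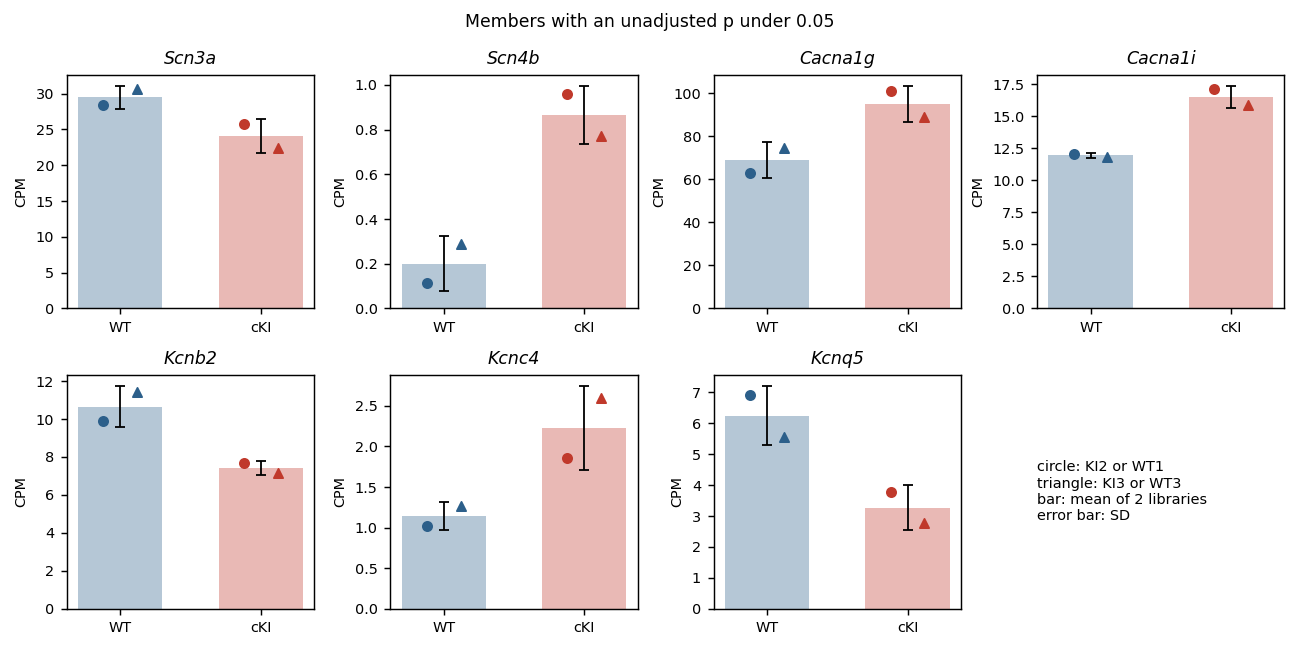
CPM of the 7 members with an unadjusted p under 0.05, with each library as a point, the mean of 2 libraries as a bar and the SD as an error bar, in WT (blue) and cKI f/+ (red). The groups do not overlap for any of the 7, which were picked by their p in these same counts. For 33.9% of all tested genes the groups do not overlap either. Scn4b lies under 1 CPM in all 4 libraries.

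None of the 5 tested high-voltage-activated alpha1 genes had an unadjusted p under 0.05. Cacna1a of the P/Q-type channel had a log2 fold change of 0.07, Cacna1b of 0.00015, Cacna1c of the L-type channel of 0.01, Cacna1d of -0.17 and Cacna1e of the R-type channel of -0.08. For Cacna1e the spread lay within the groups, with 126.3 and 86.6 CPM in cKI f/+ against 125.1 and 100.3 CPM in WT, so that KI2 and WT1 were high and KI3 and WT3 low. Cacna1d had the same pattern at 33.7 and 22.9 CPM against 36.0 and 28.0 CPM.

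The alpha2delta, beta and gamma subunits bring calcium channels to the membrane and tune them, and some gamma subunits instead traffic AMPA receptors. Cacna2d2 was present at 6.56 to 8.32 RPKM, Cacna2d1 at 6.63 to 7.97 RPKM and Cacna2d3 at 1.24 to 1.45 RPKM. The order of the first pair turned when the longest transcript was used as length. Cacnb3, the main beta subunit of these libraries, stood at 70.7 to 76.7 RPKM, Cacnb1 at 22.9 to 25.5 RPKM and Cacnb4 at 1.18 to 1.58 RPKM. Cacnb3 held 73.5% ± 0.23 (SD, n = 2) of the beta subunit level in cKI f/+ against 73.9% ± 0.13 (SD, n = 2) in WT.

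Of the gamma subunits, Cacng7 stood at 95.5 to 112.4 RPKM, Cacng4 at 51.0 to 57.5 RPKM and Cacng8 at 10.7 to 12.9 RPKM. Cacng7, Cacng8 and Cacng6 lie next to each other on chromosome 7 between 3332955 and 3435667, and Cacng6 was at the floor beside the most abundant member. Cacng4, Cacng5 and Cacng1 lie together on chromosome 11 between 107703218 and 107915055, and Cacng5 and Cacng1 were at or under 1.63 RPKM. None of the 14 tested genes of these 3 families had an unadjusted p under 0.05. The largest difference among them was that of Cacng1, the gamma subunit of skeletal muscle, with 8 and 7 counts against 11 and 19 and a log2 fold change of -1.02 (unadjusted p = 0.0784 from edgeR's quasi-likelihood test).

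HCN channels carry the inward current that follows hyperpolarization. Hcn3 stood at 13.4 to 14.5 RPKM, Hcn4 at 5.57 to 6.30 RPKM and Hcn2 at 1.41 to 2.04 RPKM. Hcn3 shares 17.1% of its exon bases with Pklr on the other strand. Without a stated strand setting it is not known how reads in the shared bases were counted. Of the 4 genes, 3 were higher and 1 lower in cKI f/+, and 0 had an unadjusted p under 0.05.

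Among the Kcnq genes, Kcnq3 encodes a subunit of the M-current channel, which restrains repetitive firing, and stood at 4.87 to 7.33 RPKM. It had 96.4 and 71.6 CPM in cKI f/+ against 107.9 and 92.1 CPM in WT, so that it was higher in KI2 than in KI3 and in WT1 than in WT3, with overlapping groups.

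Kcnq5, another M-current gene, had 3.78 and 2.76 CPM in cKI f/+ against 6.93 and 5.57 CPM in WT. All cKI f/+ values were below all WT values, and the log2 fold change was -0.93 (standard error 0.24), with an unadjusted p of 0.00354 and an adjusted p of 0.681 from edgeR's quasi-likelihood test. The gene lies on chromosome 1 from 21398403 to 21961942 and shares 3.08% of its exon bases with the lincRNA Gm26580 on the other strand. Kcnq1, known from the heart and inner ear and from an imprinted domain, had 15 and 16 counts against 11 and 14, and shares exon bases with the antisense transcript Kcnq1ot1.

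The Kcna, Kcnb, Kcnc and Kcnd genes encode the delayed rectifiers and the A-type currents. Kcnc1, a fast channel of rapidly firing neurons, stood at 4.71 to 5.60 RPKM, with Kcnc2 at 0.410 to 0.561 RPKM. The A-type gene Kcnd3 stood at 3.52 to 4.03 RPKM, Kcnd1 at 1.36 to 2.09 RPKM and Kcnd2 at 0.941 to 1.24 RPKM. Kcna6 stood at 1.94 to 2.52 RPKM, Kcna1 at 1.18 to 2.15 RPKM and Kcna3 at 0.754 to 1.55 RPKM. By family, 2 of 6 Kcna, 3 of 4 Kcnc, 1 of 3 Kcnd and 2 of 5 Kcnq genes were higher in cKI f/+. Kcna6 shares 39.6% of its exon bases with the antisense gene Gm26673, and how reads in those bases were counted is not known either.

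Kcnc4 and Kcnb2 were the other members with an unadjusted p under 0.05, in opposite directions. Kcnc4 had 33 and 47 counts in cKI f/+ against 18 and 22 counts in WT, a log2 fold change of 0.97 (standard error 0.34), with an unadjusted p of 0.0191 and an adjusted p of 0.969 from edgeR's quasi-likelihood test. Kcnb2 had 7.67 and 7.17 CPM in cKI f/+ against 9.88 and 11.4 CPM in WT, a log2 fold change of -0.52 (standard error 0.17), with an unadjusted p of 0.0129 and an adjusted p of 0.969. For neither gene did the groups overlap. Kcnd1, the tested member on chromosome X, had 11.1 and 7.89 CPM against 7.21 and 7.46 CPM, with KI2 above the other 3 libraries and a log2 fold change of 0.37 (unadjusted p = 0.0929 from edgeR's quasi-likelihood test). Without KI2 the log2 fold change of Kcnd1 was 0.096.

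The genes that work with these channels were taken from lists chosen for their role, and 0 of them were called. Among accessory subunits (Kcnab, Kcne, Kcnip, Dpp6, Dpp10, Fgf11 to Fgf14 and others), 20 of 24 listed genes were tested, 9 were higher and 11 lower in cKI f/+, 0 had an unadjusted p under 0.05, and the median log2 fold change was -0.0041. Fgf11 and Fgf13, intracellular partners of sodium channels, led them at 18.9 to 20.7 and 15.3 to 16.3 RPKM. Of the silent Kv and EAG-family genes, 12 of 18 were tested and the median was -0.12. Kcng1, a silent subunit, led at 13.0 to 15.6 RPKM. Kcnh3 had 33.3 and 37.1 CPM against 25.0 and 32.3 CPM (log2 fold change 0.30, unadjusted p = 0.0464 from edgeR's quasi-likelihood test), and Kcnh7 had 19.8 and 23.7 CPM against 30.1 and 27.2 CPM (log2 fold change -0.39, unadjusted p = 0.0100).

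Of 34 other potassium channel genes, 25 were tested with a median log2 fold change of -0.0050. Kcnj5, an inward rectifier, had an unadjusted p under 0.05, with 2.54 and 2.98 CPM against 1.36 and 1.84 CPM. Kcnj11 stood at 16.4 to 19.4 RPKM, and the small-conductance channel gene Kcnn1 split within both groups, with 10.3 and 5.68 RPKM in cKI f/+ against 10.9 and 5.18 RPKM in WT. The 7 genes for membrane anchors and the leak channel Nalcn had a median of -0.06, with Nfasc at 29.6 to 36.0 and Nedd4l at 13.3 to 15.1 RPKM. The 8 genes of the Rest repressor complex, which keeps neuronal genes such as sodium channels silent outside neurons, had a median of -0.06, with Rcor2 at 161 to 179 and Hdac2 at 92.6 to 101.5 RPKM.

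The channel genes also differed between the libraries of 1 genotype. Of the 57 tested members, 43, or 75.4%, had a higher CPM in KI2 than in KI3, against 47.9% of all tested genes. The median log2 ratio of KI2 to KI3 was 0.16 over the members and -0.01 over all tested genes with counts in every library. Between WT1 and WT3, 25 members were higher in WT1, or 43.9%, against 48.1% of all tested genes, with a median log2 ratio of -0.06. Both held for 19 members, or 33.3%, against 25.9% of all tested genes. No label pairs these libraries across genotypes, so this count depends on the order in which they were set. The members' median log2 fold change between genotypes was -0.098 without KI2 and 0.094 without KI3.

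The same comparison was made among members with more reads. Among the 39 members with 100 or more counts per library on average, 33 were higher in KI2 than in KI3 with a median log2 ratio of 0.18, where 47.6% of 11106 such genes were higher in KI2. Over these 39 members the log2 ratio of KI2 to KI3 and that of WT1 to WT3 had a Pearson correlation of 0.46, against 0.06 over the 11106 genes. Over all 57 tested members it was 0.09, against 0.10 over all tested genes with counts in every library. Genes are not independent replicates. No label pairs KI2 with WT1 or KI3 with WT3, and swapping the libraries of either genotype would turn the sign of every such correlation. The members had a median span of 71698 bases and 7138 exon bases against 20634 and 4159 over all tested genes. Among genes of more than 300000 bases with enough reads, 68.0% of 362 were higher in KI2, and 7 of the 8 members of that length were. From 100000 to 300000 bases it was 63.0% of genes and 8 of 11 members, and from 30000 to 100000 bases 55.3% of genes and 8 of 10 members. Among genes of 10000 to 30000 bases, 40.0% of 3492 were higher in KI2, and 9 of the 9 members were. The correlation of the KI2 to KI3 ratio with the WT1 to WT3 ratio also differed by span. It was 0.30 over the genes of more than 300000 bases and 0.85 over the 8 members of that length. From 100000 to 300000 bases it was 0.21 over genes and 0.46 over members. From 30000 to 100000 bases it was 0.15 and 0.12, and from 10000 to 30000 bases -0.21 and 0.12. The part of gene length in this pattern was not tested beyond these shares and correlations.

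**Figure D4:**
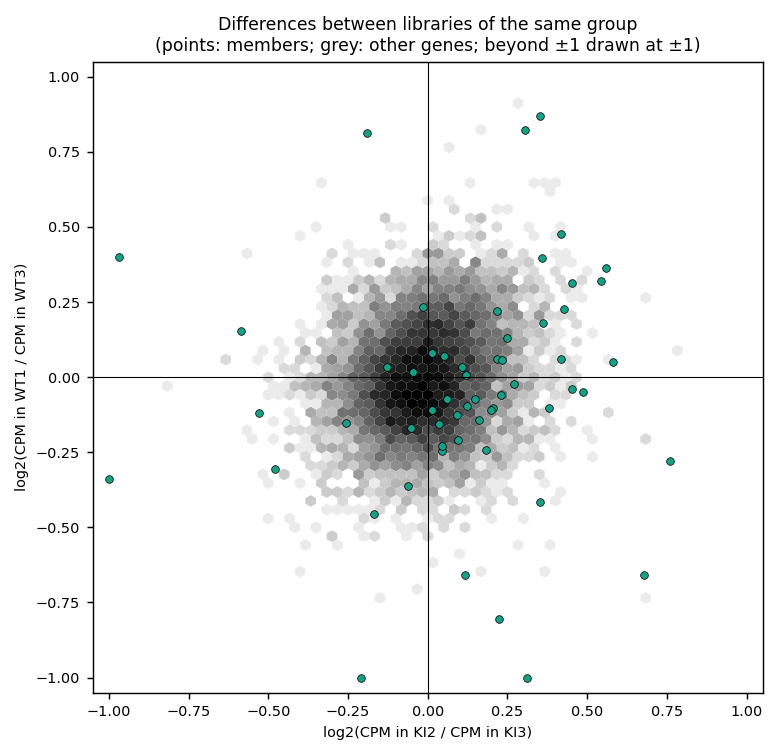
Log2 ratio of CPM between KI2 and KI3 (horizontal axis) and between WT1 and WT3 (vertical axis) for the 57 tested members (green) and for other tested genes with 100 or more counts per library on average (grey, darker where more genes fall). Members beyond 1 in either direction are drawn at 1. On the horizontal axis 43 of 57 members lie to the right of 0.

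Cell type markers were set beside these values. The summed level of the 12 neuron markers was 7044 and 6550 CPM in KI2 and KI3 and 7156 and 7332 CPM in WT1 and WT3, lowest in KI3. Of the 12, 11 were lower in cKI f/+ with 0 at an unadjusted p under 0.05, where 7704 of all 15786 tested genes were lower. The 12 radial glia and progenitor markers summed to 3434 to 3618 CPM, highest in KI3. In bulk tissue, fewer cells of a type and less RNA per cell cannot be told apart. The choroid plexus markers summed to 10.4 and 67.6 CPM in KI2 and KI3 and 2.38 and 4.71 CPM in WT, with all 5 tested markers higher in cKI f/+ and Ttr at 0 counts in WT1, while Kcnj13 and Kl were at or under 3 counts in every library. Meningeal markers summed to 21.9 and 19.8 CPM against 10.1 and 11.3 CPM, with 4 of 5 tested markers higher at an unadjusted p under 0.05. Ventral telencephalon markers summed to 282 and 304 CPM against 285 and 361 CPM, with 1 of 10 higher and 1 lower at an unadjusted p under 0.05. Blood markers summed to 490 and 367 CPM against 492 and 522 CPM, with 3 of 7 lower at an unadjusted p under 0.05, endothelial markers to 101 to 115 CPM and microglial markers to 32.0 to 38.6 CPM. Of all tested genes, 51.2% were higher in cKI f/+. At an unadjusted p under 0.05 from edgeR's quasi-likelihood test, 2.26% of all tested genes were higher and 2.34% lower. The part of these marker differences in the channel values was not tested.

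The members lie on 16 chromosomes, 10 of them on chromosome 2 and 8 on chromosome 7. The 7 members with an unadjusted p under 0.05 lie on chromosomes 1, 2, 3, 9, 11 and 15. Several members are neighbours in the genome. Kcna5, Kcna1 and Kcna6 on chromosome 6 between 126532551 and 126740674 had log2 fold changes of 0.64, -0.22 and -0.08. Kcna3 and Kcna2 on chromosome 3, near Kcnc4, had log2 fold changes of -0.59 and -0.04, and none of these 5 genes had an unadjusted p under 0.05. In GENCODE M21, 18 members share exon bases with another gene. For 13 of them that gene is in the count table, and 5 share 10% or more, among them Kcna6, Cacna1s, Hcn3 and Cacnb4. Among the others were Cacna1a, Cacna1d, Cacna1h, Cacna2d2, Cacnb1, Cacnb2, Cacng2, Cacng8, Kcnd3, Kcnq1, Kcnq5 and Scn9a.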

How the data were processed

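Libraries of E15 telencephalic RNA were read on an Illumina HiSeq platform, and for every gene the authors deposited the raw count of reads in each library. Per the submitters' processing notes, Bowtie2 2.2.3, TopHat2 2.0.12, HTSeq 0.6.0 and mm9 were used, yet 24485 of 26433 genes, 60 members included, lie where GENCODE M21 (GRCm38) puts them. The strand setting is not given in the sources used here. Columns could be tied to a genotype only. The authors' own mean, fold change and p-value columns were not used.

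Tests used edgeR 4.0.16 in R 4.3.3, with its default expression filter, TMM and Benjamini-Hochberg adjustment over all 15786 tested genes at 0.05. The biological coefficient of variation was 8.72%. The size of a log2 fold change over the root of F gave its standard error. RPKM used exon unions of M21. Libraries of a genotype were not copies (chi-square per degree of freedom, 5.63 for cKI f/+ and 7.49 for WT). Fits were tested on simulated counts. DESeq2 1.42.0, a likelihood ratio test, other scalings and filters, exclusion of the sex chromosomes and omission of single libraries were alternatives.

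Named members have an unadjusted p under 0.05, are among the 3 highest of their family, lie on chromosome 17 or X, or share exons with another gene. In the channel lists the 2 highest and those with an unadjusted p under 0.05 are named. Scn1a, Scn4a, Scn11a, Cacna1c, Cacna1e, Cacna2d4, Cacng1, Cacng5, Cacng6, Kcna2 and Kcna5 were chosen after their values were seen. Some results of single genes are not reported here. The members and lists were chosen with earlier results of these data known.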

Additional observations from a re-analysis of the deposited data

How the results depend on the processing

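No member was called in the main test. A likelihood ratio test in edgeR called 1, Cacna1g (log2 fold change 0.47), DESeq2 called 0, and an unadjusted p under 0.05, a threshold chosen after seeing the data, gave 7. Leaving out single libraries gave 0 to 1 members, the 1 being Cacna1g without WT3, and Cacna1g ran from 0.35 to 0.60. Of all genes, 19 were called. Requiring 10 counts in each library left 6, excluding the sex chromosomes left 11, the likelihood ratio test gave 54, the unadjusted threshold 726, and omission of single libraries 46 to 71. Cacna1h reversed to -0.095 without KI2 and to -0.023 without WT1, in a range of -0.095 to 0.13. The members' median ran from -0.098 (without KI2) to 0.094 (without KI3), and 24 to 41 members were higher in cKI f/+. The cause of these shifts was not tested. The direction of Scn3a, Scn4b, Cacna1g, Cacna1i, Kcnb2, Kcnc4 and Kcnq5 held in each alternative that gave a value. These 7 genes were picked by p and their groups did not overlap, so leaving out a library could hardly reverse them. With DESeq2's Wald test, the unadjusted p was 0.0815 for Scn3a and 0.0932 for Kcnc4. Scn4b had no value under the 10-count filter and Kcnd1 none without the sex chromosomes. With the longest transcript as length, 11 of 12 families had the same most abundant gene. An omitted library left 1 in its group, assumed to vary like the others. No paired analysis was possible because the labels give no litter or pairing of libraries, and columns could be tied to a genotype only. Of the 57 tested members, 18 had under 100 counts per library on average, which limits their precision.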
